A study of Mus musculus with 100 samples.

Results

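The acetylation of histone H3 at lysine 27 (H3K27ac) was compared between wild-type bone marrow-derived macrophages (BMDMs) given Kdo2 lipid A (KLA) and the same kind of cells given vehicle (Veh). Both groups also received DMSO, the solvent of the HDAC3 inhibitor RGFP966 that was tested in the same experiment. The members are the 4 libraries labelled H3K27ac_WT_DMSO_Veh and H3K27ac_WT_DMSO_KLA, 2 per group, of 100 samples in the series, and the 29767 windows of 1000 bp in which their tags had been counted. The BMDMs were grown from C57BL/6 bone marrow in M-CSF, had their serum reduced with DMSO present, and were treated for 6 h. Per the study's methods the replicates were separate biological samples. Windows were centred on open chromatin that ATAC-seq had found in untreated cells, so places that open only with KLA were outside the count table.

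H3K27ac is laid down by acetyltransferases such as p300 and CBP at active promoters and enhancers, and its level at an enhancer tracks the activity of that enhancer. KLA is the active core of bacterial lipopolysaccharide and a selective agonist of Toll-like receptor 4 (TLR4). In macrophages TLR4 signals through MyD88 and TRIF to NFκB, AP-1 and IRF3, and the type I interferon made in this way acts back on the cells through factors such as STAT2 and IRF9. Resting enhancers of the macrophage are held by lineage factors, among them PU.1, C/EBP and RUNX proteins, to which the signal-dependent factors are added.

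A window was called gained or lost when edgeR's quasi-likelihood test gave a Benjamini-Hochberg adjusted p under 0.05 and the level changed more than 2-fold. Levels are tags per 10 M of the total tags of a library. To show what the underlying DNA looks like, the central 200 bases of the 3 gained windows with the lowest p and of 2 of the lost windows with the lowest p are given first, from the GRCm38.p6 genome (mm10 coordinates, plus strand). Windows are named by their nearest gene. Lower case is the reference sequence and capitals mark matches, on either strand, to motifs spelled as follows: GGNNTTTCC for κB, TGANTCA for AP-1, GAGGAAGT for PU.1, TTGCNNAA for C/EBP, GAAANNGAA for the interferon-stimulated response element (ISRE) and TGTGGTT for RUNX. The κB and ISRE letters share a run of TTTC in opposite directions, so 1 stretch of DNA can match both.
4933432I03Rik, chr14:103015997-103016196: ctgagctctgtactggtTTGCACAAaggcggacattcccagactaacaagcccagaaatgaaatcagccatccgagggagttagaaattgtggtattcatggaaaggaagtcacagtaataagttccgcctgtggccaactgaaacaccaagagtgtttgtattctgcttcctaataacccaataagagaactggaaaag
Ifi205, chr1:174031801-174032000: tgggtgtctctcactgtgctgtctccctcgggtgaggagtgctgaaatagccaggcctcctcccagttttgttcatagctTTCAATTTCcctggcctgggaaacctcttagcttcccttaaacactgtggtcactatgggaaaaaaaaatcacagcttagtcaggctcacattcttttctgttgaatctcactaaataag
4930529L06Rik, chr16:84585069-84585268: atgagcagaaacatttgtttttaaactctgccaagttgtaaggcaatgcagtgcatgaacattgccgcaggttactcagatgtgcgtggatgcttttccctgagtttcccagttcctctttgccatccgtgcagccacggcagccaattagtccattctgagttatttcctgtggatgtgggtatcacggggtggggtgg
1700027F06Rik, chr6:124375570-124375769: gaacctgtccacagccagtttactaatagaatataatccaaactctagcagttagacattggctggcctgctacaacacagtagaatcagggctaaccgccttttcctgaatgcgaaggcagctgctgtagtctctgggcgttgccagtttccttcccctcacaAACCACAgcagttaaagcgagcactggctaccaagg
Adam6b, chr12:113424859-113425058: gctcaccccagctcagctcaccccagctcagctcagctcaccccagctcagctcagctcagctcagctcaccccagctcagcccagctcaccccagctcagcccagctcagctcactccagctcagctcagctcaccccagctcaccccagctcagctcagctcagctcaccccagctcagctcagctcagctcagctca

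The first 3 sequences were gained and the last 2 were lost. The 4933432I03Rik window held a C/EBP match, the Ifi205 window an ISRE match and the 1700027F06Rik window a RUNX match, and the other 2 held none of the 6 motifs in these bases. The Adam6b stretch is a tandem repeat in which the 5 bases AGCTC occurred 28 times in 200 bases. It lies 2.2 kb from the immunoglobulin heavy constant gene Ighm and 3.6 kb from the joining segment Ighj4, the interval that holds the mu switch region of the heavy chain locus. Reads from such a repeat can be placed at several of its copies, so the level of this window is uncertain.

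A second set shows promoters that gained H3K27ac with KLA, from the 250 bases before the start site in the RefSeq promoter table (GRCm38.p6), written 5′ to 3′ along the gene. The 4 were chosen after their values were seen and because they hold a κB or ISRE match, so they illustrate the motifs and do not give their frequency. They were taken from 12 gained genes looked up for these 2 motifs, of which 10 had an entry, among 21 genes looked up in all. Cmpk2, Irf9 and Ccl12 held neither motif, and Il1rn held a κB match at 1 of its start sites and none at the first one listed. The Gbp5 stretch is shorter because it stops before an annotated UTR, and Rsad2 lies on the minus strand and the others on the plus strand.
Gbp5, chr3:142496684-142496899: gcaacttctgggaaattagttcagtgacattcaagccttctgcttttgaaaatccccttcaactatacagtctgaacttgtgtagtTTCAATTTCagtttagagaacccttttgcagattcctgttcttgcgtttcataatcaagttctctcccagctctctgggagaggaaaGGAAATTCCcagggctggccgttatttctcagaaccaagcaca
Gbp7, chr3:142530086-142530335: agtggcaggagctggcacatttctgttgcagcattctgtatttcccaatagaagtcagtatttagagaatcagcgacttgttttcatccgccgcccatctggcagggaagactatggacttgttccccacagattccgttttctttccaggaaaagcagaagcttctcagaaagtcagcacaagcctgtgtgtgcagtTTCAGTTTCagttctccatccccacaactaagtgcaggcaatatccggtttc
Rsad2, chr12:26456453-26456702: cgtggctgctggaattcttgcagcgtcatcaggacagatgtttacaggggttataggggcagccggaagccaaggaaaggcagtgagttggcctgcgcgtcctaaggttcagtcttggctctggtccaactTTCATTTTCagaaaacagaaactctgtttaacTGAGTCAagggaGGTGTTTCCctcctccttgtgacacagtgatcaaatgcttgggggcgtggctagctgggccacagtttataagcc
Il6, chr5:30012864-30013113: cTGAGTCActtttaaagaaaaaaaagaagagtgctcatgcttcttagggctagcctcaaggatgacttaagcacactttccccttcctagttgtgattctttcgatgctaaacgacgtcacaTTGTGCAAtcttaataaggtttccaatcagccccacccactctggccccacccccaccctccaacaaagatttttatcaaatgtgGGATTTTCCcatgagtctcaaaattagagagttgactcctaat

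Gbp5 and Gbp7 encode interferon-induced GTPases, Rsad2 the antiviral enzyme viperin and Il6 the cytokine interleukin 6. The ISRE matches read TTCAATTTC in Gbp5, TTCAGTTTC in Gbp7 and TTCATTTTC in Rsad2. The κB matches read GGAAATTCC in Gbp5, GGTGTTTCC in Rsad2 and GGATTTTCC in Il6. Rsad2 and Il6 each held the AP-1 match TGAGTCA as well, and Il6 the C/EBP match TTGTGCAA. Over all 32851 promoters of the table, 7.13% held an ISRE match and 4.93% a κB match in these 250 bases.

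The libraries held 12.0 and 11.5 M tags with Veh and 15.4 and 11.9 M with KLA. The share of tags inside the windows was 31.5% and 30.6% with Veh and 27.9% and 22.9% with KLA, lowest in KLA replicate 2. Replacing library totals with TMM factors (a trimmed mean of log ratios that takes most windows as unchanged) moved the median log2 fold change by 0.42. Counts of whole groups are therefore given under both scalings. Replicates correlated at Pearson's r of 0.971 (Veh) and 0.964 (KLA) across windows, and their chi-square per window was 1.61 and 2.04, above sampling noise. Each of 12 macrophage markers had a window within 2 kb of its start site, with summed levels of 5067 and 5052 tags per 10 M with Veh and 4800 and 3934 with KLA. None of 10 T cell, 10 B cell, 8 mast cell, 8 fibroblast and 8 endothelial markers had such a window. Of 10 neutrophil, 7 NK cell and 8 erythroid markers 1 each did, at no more than 58.4 tags per 10 M, beside a median of 88.9 and 88.1 (Veh) over promoters. Among 8 dendritic cell markers Clec9a stood at 576 and 537 tags with Veh and 135 and 136 with KLA, while Zbtb46 and Flt3, which define that lineage, were at or below 4.21 in every library. The part of these differences in the results below was not tested. In bulk chromatin, fewer cells carrying the mark and less of the mark per cell cannot be told apart.

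Under library totals more windows lost H3K27ac than gained it with KLA, and the balance depends on the scaling. A minimum of 16 tags in at least 1 library, the RGFP966 KLA libraries of the same experiment included, was passed by 25045 windows. Of these, 1686 were gained (6.73%) and 7038 were lost (28.1%), and 16321 were not called. With TMM the counts were 3124 gained and 4316 lost, and this balance turned when a KLA library was left out, with 3818 gained and 3546 lost without KLA replicate 1 and 4018 gained and 3685 lost without KLA replicate 2. All 1686 gained windows were gained under both scalings, 4316 of the 7038 lost windows (17.2% of all tested) were lost under both, and 0 were called in opposite directions. The median level of gained windows was 37.0 tags per 10 M with Veh and 129 with KLA, that of lost windows 87.2 with Veh and 25.5 with KLA, and that of the windows not called 75.7 and 67.8. The plot of KLA against Veh levels shows gained windows from a median Veh level below, and lost windows from one above, the median over all windows. Changes over 4-fold were seen in 506 gained and 2113 lost windows. The gained set held 1171 windows and the lost set 5076 that kept their call whichever of the 4 libraries was left out.

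**Figure D1:**
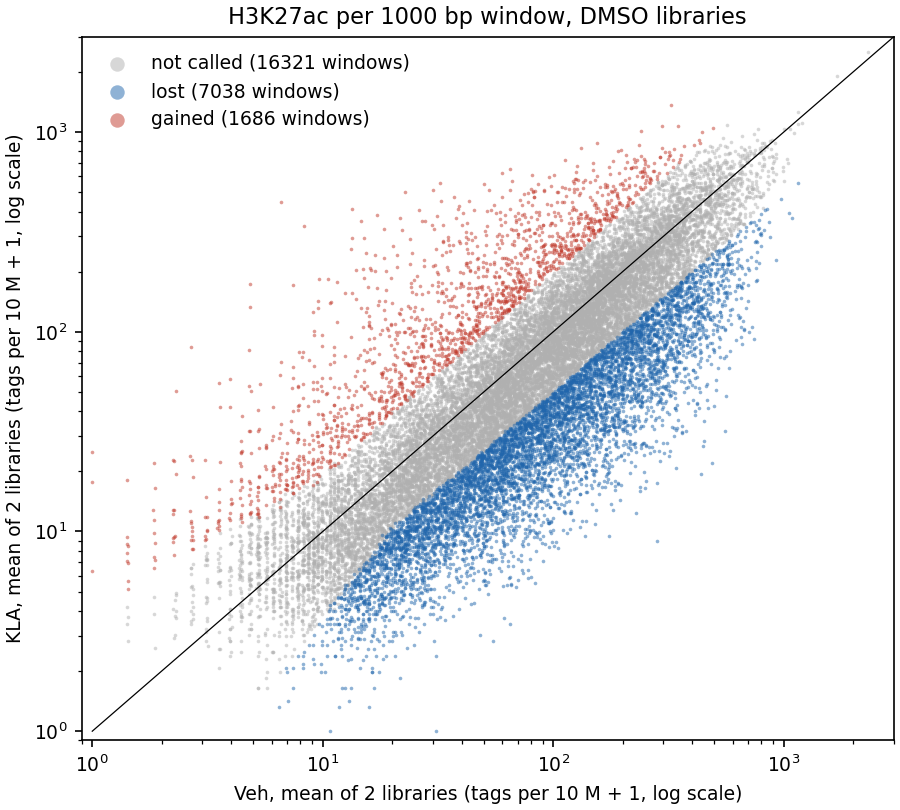
Mean H3K27ac level of the 2 Veh libraries (x axis) and the 2 KLA libraries (y axis), in tags per 10 M plus 1 on log scales, for 25045 windows of 1000 bp. Red points are the 1686 gained windows, blue points the 7038 lost windows, grey points the 16321 not called, and the line marks equal levels.

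Windows far from start sites changed more than promoters. Within 2 kb of a start site, 523 of 9836 windows were gained (5.32%) and 1449 were lost (14.7%), with a median log2 fold change of -0.17. Farther away, 1163 of 15209 were gained (7.65%) and 5589 were lost (36.7%), with a median of -0.69. The share lost was 11.7% in the first 500 bp, 27.4% from there to 2 kb, 33.4% from 2 to 10 kb, 36.3% from 10 to 50 kb and 40.3% beyond 50 kb. The share gained moved less, from 5.12% nearest the start site to 7.6% beyond 50 kb. With TMM the medians were 0.25 near and -0.27 far from start sites, so the sign of the proximal median rests on the scaling, as the 2 panels of the distance plot show. Under TMM 1154 proximal windows were gained and 742 lost, against 1970 gained and 3574 lost distal windows. By annotation, 38% of intergenic and 33.6% of intronic windows were lost, and 12.5% of promoter windows.

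**Figure D2:**
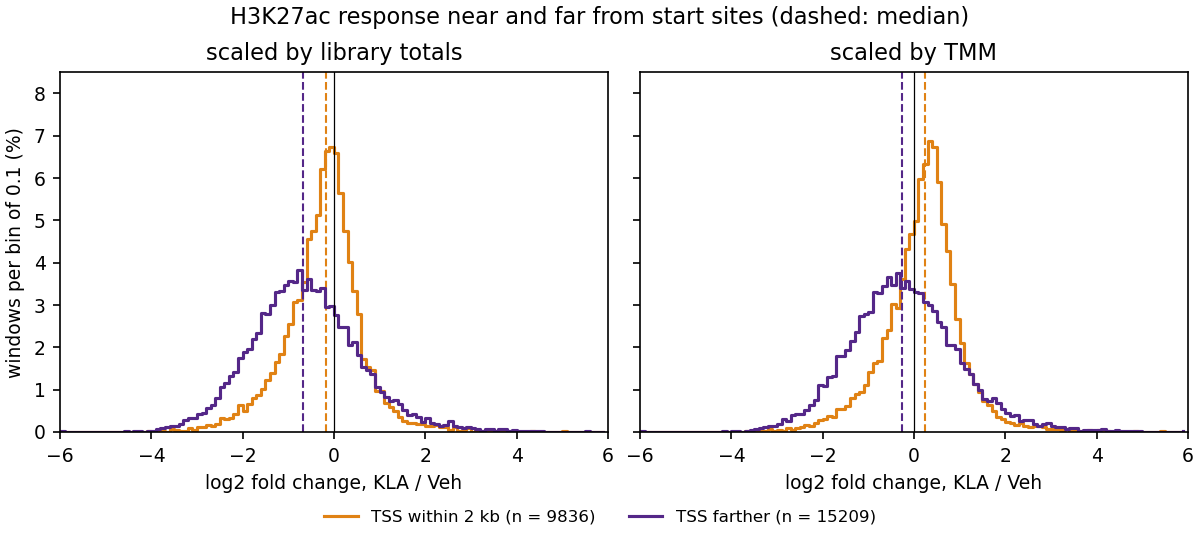
Distribution of the log2 fold change (KLA over Veh, x axis, bins of 0.1) as a percent of windows (y axis) for 9836 windows within 2 kb of a start site (TSS) and 15209 farther away, scaled by library totals (left) and TMM (right). Dashed lines are medians, at -0.17 and -0.69 on the left and 0.25 and -0.27 on the right.

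The gained window with the lowest p lay in an intron of 4933432I03Rik (chr14:103015596-103016596), 30.9 kb from Acod1, which encodes the enzyme that makes itaconate. Its level was 2.49 and 8.72 tags per 10 M with Veh and 451 and 440.1 with KLA (log2 fold change 6.31 ± 0.32 SE, edgeR adjusted p = 1.08e-79). Both KLA libraries stood far above both Veh libraries, and each of the 7 windows assigned to this gene was gained. At the promoter of Ifi205, an interferon-inducible gene of the family of DNA sensors (chr1:174031400-174032400), the level was 9.97 and 14.8 tags per 10 M with Veh and 465 and 354 with KLA (log2 fold change 5.04 ± 0.29 SE, edgeR adjusted p = 4.03e-65). The intergenic window named for 4930529L06Rik (chr16:84584668-84585668) had 16.6 and 27 tags per 10 M with Veh and 534 and 465 with KLA (4.52 ± 0.26 on the log2 scale). In these 3 windows the groups did not overlap. The same held, among all 25045 tested windows, for 4992 that were higher and 13462 that were lower with KLA.

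The next gained windows with the lowest p were at or near the following genes. The Gbp5 promoter (chr3:142496324-142497324) had 29.1 and 33.1 tags per 10 M with Veh and 569 and 537 with KLA (log2 fold change 4.15 ± 0.25 SE, edgeR adjusted p = 1.18e-59). An intronic window of Sod2, the manganese superoxide dismutase of mitochondria (chr17:13009556-13010556), rose from 35.7 and 22.7 to 555 and 466 tags per 10 M (4.12 ± 0.25). A window in Psma6, 99.5 kb from the NFκB inhibitor gene Nfkbia, rose from 9.97 and 14.8 to 311 and 278 tags per 10 M (4.57 ± 0.29). The low Veh levels and the high KLA levels formed separate groups in each case, and groups were separate in most tested windows. Mmp14, a membrane-bound metalloprotease, had an intronic window that rose from 14.1 and 27 to 395 and 347 tags per 10 M (4.18 ± 0.27). The window nearest Has1, the hyaluronan synthase, lay 11.1 kb from the formyl peptide receptor gene Fpr1 and rose from 20.8 and 29.7 to 458 and 353 tags per 10 M (4.01 ± 0.26). Rgl1 and Alpk2 gave the remaining pair of the 10, with log2 fold changes of 4.56 ± 0.28 and 4.70 ± 0.28.

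Among lost windows the lowest p belonged to the intergenic window nearest 1700027F06Rik (chr6:124375169-124376169), 45.1 kb from the hemoglobin scavenger receptor gene Cd163. It had 514 and 456 tags per 10 M with Veh and 22.7 and 19.4 with KLA (log2 fold change -4.51 ± 0.26 SE, edgeR adjusted p = 1.45e-64). The mark was close to gone in both KLA libraries, and a window inside Cd163 itself fell from 140.4 and 112 to 11 and 15.1 tags per 10 M. The repeat window named for Adam6b (chr12:113424458-113425458) had 267 and 295 tags per 10 M with Veh and 8.42 and 7.57 with KLA (log2 fold change -5.11 ± 0.31 SE, edgeR adjusted p = 5.92e-57), with the uncertainty of placement given above. At the promoter of Cxcr4, the receptor for the chemokine CXCL12 (chr1:128591808-128592808), the level was 265 and 295 tags per 10 M with Veh and 21.4 and 11.8 with KLA (log2 fold change -4.03 ± 0.28 SE, edgeR adjusted p = 4.71e-45). A window nearest Slc7a13 but 7.1 kb from Atp6v0d2, an osteoclast subunit of the proton pump, fell from 430.2 and 458 to 29.8 and 21.9 tags per 10 M. An intronic window of the sodium/proton exchanger Slc9a9 fell from 542 and 581 to 47.3 and 46.3 tags per 10 M. The plot of 19 of these windows shows Veh and KLA libraries apart by more than the distance between replicates in every one of them. Their choice for the lowest p favoured such a separation.

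**Figure D3:**
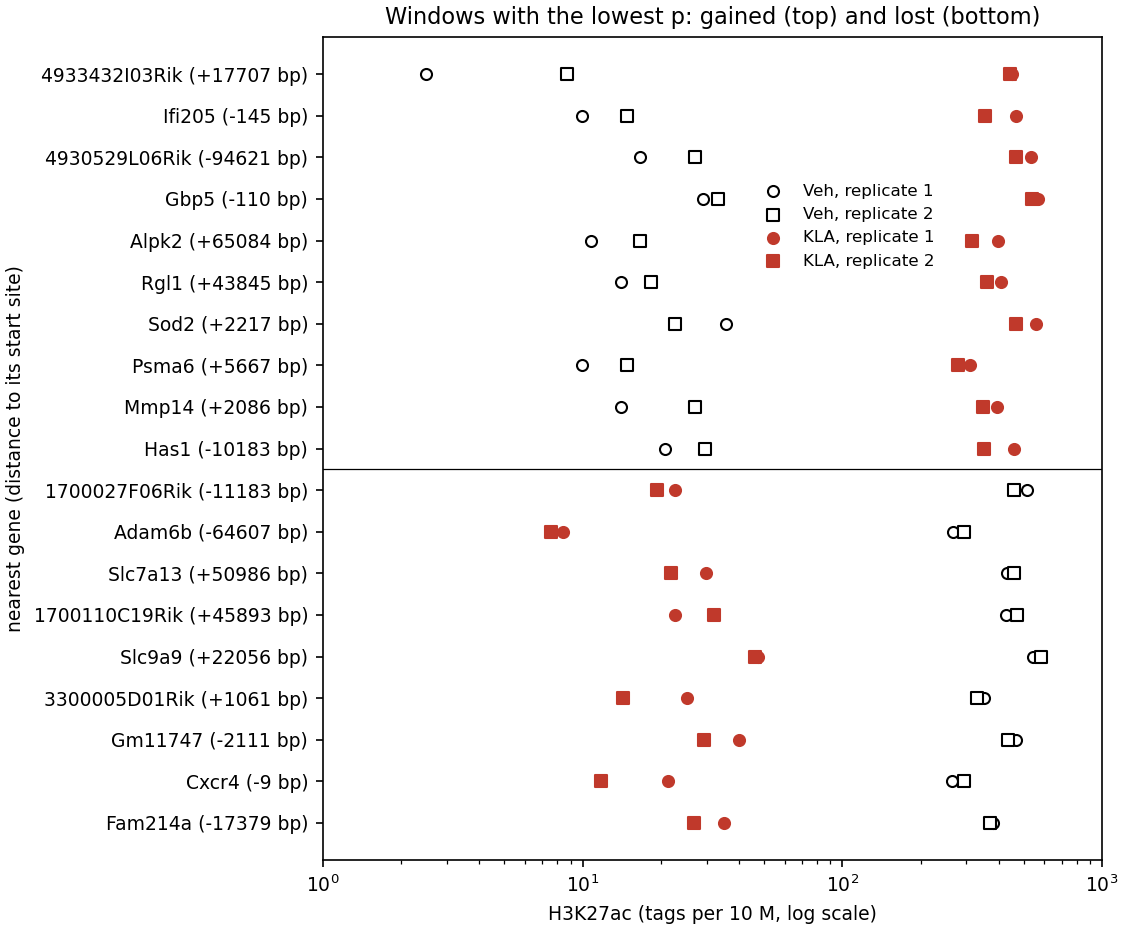
H3K27ac level (tags per 10 M, log scale, x axis) of each library in the 10 gained (top) and 9 of the 10 lost (bottom) windows with the lowest p, 1 per nearest gene, with the distance to its start site. Open symbols are Veh, filled symbols KLA, and circles and squares are replicates 1 and 2; the gained 4933432I03Rik window moved from 2.49 and 8.72 to 451 and 440.

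Gene functions were read from 34 lists of genes, each window being assigned to its nearest gene. The shares of each list are to be read beside the 6.73% gained and 28.1% lost of all windows. Of the 34 lists, 20 had a share gained above that value and 12 a share lost above it. A nearest gene need not be the gene that a window regulates. Interferon-stimulated genes gained the mark most. Of 61 windows at 28 tested genes of this list 39 were gained (63.9%) and 0 were lost, with a median log2 fold change of 1.54, beside -0.42 over all windows. With TMM 42 were gained and 0 lost, and leaving out 1 library gave 36 to 40 gained and 0 lost, or 1 lost without Veh replicate 2 or KLA replicate 1. Of 31 promoter windows 28 were gained, at 22 genes, with a median of 2.08, beside 5.32% gained of all proximal windows.

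The genes so marked spanned sensing, signalling and effector functions. Stat2 and Irf9 encode subunits of the interferon-activated factor ISGF3. The Stat2 promoter had 95.5 and 97.7 tags per 10 M with Veh and 481 and 378 with KLA (log2 fold change 2.15 ± 0.21 SE, edgeR adjusted p = 4.44e-22). It was clear of its Veh levels in both KLA replicates. The Mx1 promoter went from 48.2 and 56.7 to 449 and 365 tags per 10 M (2.96 ± 0.23), that of Rsad2 from 26.6 and 41.9 to 283 and 256 tags per 10 M (2.98 ± 0.25) and that of Isg20, an exonuclease, from 24.1 and 15.7 to 273 and 207 tags per 10 M (3.59 ± 0.28). Usp18, which removes ISG15 and dampens the interferon receptor, had 61.5 and 68.9 tags per 10 M with Veh and 626 and 506 with KLA (log2 fold change 3.12 ± 0.22 SE, edgeR adjusted p = 2.04e-41). The guanylate binding proteins Gbp2 and Gbp7 had log2 fold changes of 3.71 ± 0.24 and 3.79 ± 0.26, and the window of Gbp2 went from 39.9 and 32.3 to 538 and 408 tags per 10 M.

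Class I antigen presentation moved the same way in part. Of 15 windows 7 were gained (46.7%), 1 was lost (6.67%) and 0 were lost under both scalings (median 0.83). With TMM 8 were gained, 4 were gained without KLA replicate 1 and 0 were lost without KLA replicate 2. Tapbp, the tapasin that loads peptides, had 160.3 and 151 tags per 10 M with Veh and 459.8 and 375 with KLA at its promoter (log2 fold change 1.43 ± 0.20 SE, edgeR adjusted p = 2.78e-11), and H2-M3, which presents formylated peptides, rose from 193 and 175 to 430.0 and 397 tags per 10 M (1.17 ± 0.20). The class I genes H2-Q4 and H2-Q7 are closely related copies, so reads could be split between them and their gains are uncertain. Class II and costimulation genes had 17 windows, with 2 gained (11.8%) and 5 lost (29.4%), or 4 and 4 with TMM. Cd86, a costimulatory ligand, rose at its promoter from 16.6 and 9.59 to 53.7 and 28.6 tags per 10 M, whereas a window of the inhibitory receptor Vsir fell from 306 and 316 to 73.2 and 58.1 tags per 10 M.

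Cytokine genes gained 23 of 50 windows (46%) and lost 4 (8%), of which 1 was lost under both scalings (median 0.96). Without KLA replicate 2, 2 were lost. With TMM 28 were gained and 1 lost. At Il6 the promoter window had 13.3 and 18.3 tags per 10 M with Veh and 247 and 237 with KLA (log2 fold change 3.93 ± 0.29 SE, edgeR adjusted p = 2.36e-40), nearly absent with Veh and high in both KLA libraries. The promoter of Il1rn, the secreted IL-1 receptor antagonist, had 39.9 and 41.9 tags per 10 M with Veh and 329.6 and 303 with KLA (log2 fold change 2.95 ± 0.24 SE, edgeR adjusted p = 3.86e-32). Il1a, which encodes IL-1α, rose at a window 10.2 kb upstream from 19.1 and 10.5 to 174 and 159.9 tags per 10 M (3.48 ± 0.29). Of 16 promoter windows of the list 9 were gained, at Il6, Il1rn, Il23a, Ebi3, Il15, Inhba and Il18, and 1 was lost, at Il16, a chemoattractant of CD4+ cells. The Il12a window with the most tags, 17.9 kb from the start site of this IL-12 subunit gene, rose from 3.32 and 7.85 to 71.2 and 68.2 tags per 10 M (log2 fold change 3.63 ± 0.38 SE, edgeR adjusted p = 8.15e-20).

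Chemokine genes gained 12 of 27 windows (44.4%) and lost 4 (14.8%), with a median of 0.94, or 14 and 2 with TMM. Ccl12, a monocyte chemoattractant, had 22.4 and 34.9 tags per 10 M with Veh and 359 and 327 with KLA at its promoter (log2 fold change 3.58 ± 0.25 SE, edgeR adjusted p = 1.57e-42). A window 10.6 kb upstream of Ccl5, a chemokine that draws T cells and monocytes, rose from 4.15 and 13.1 to 200.1 and 164 tags per 10 M (4.41 ± 0.32), and 1 near Cxcl11, an interferon-induced ligand of CXCR3, rose from 38.2 and 35.8 to 400.2 and 340.0 tags per 10 M (3.32 ± 0.24). Cxcl2, which draws neutrophils, rose at its promoter from 23.3 and 25.3 to 154 and 151 tags per 10 M (2.65 ± 0.27). The promoter window of Pf4, platelet factor 4, went the other way, with 217 and 238 tags per 10 M with Veh and 27.2 and 21 with KLA (log2 fold change -3.22 ± 0.26 SE, edgeR adjusted p = 4.67e-32), and windows of Ccl9 and Cx3cl1 were lost as well under library totals and not under TMM.

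NFκB genes showed gain at inducible subunits and inhibitors. Of 51 windows 12 were gained (23.5%), 7 were lost (13.7%) and 4 were lost under both scalings, with 24 gained under TMM. An intergenic window 26.8 kb from Nfkbia, the inhibitor IκBα, had 169 and 138 tags per 10 M with Veh and 973 and 786 with KLA (log2 fold change 2.52 ± 0.20 SE, edgeR adjusted p = 7.10e-33). The Nfkb2 promoter rose from 224 and 191 to 765 and 651 tags per 10 M (1.77 ± 0.20), the Nfkb1 promoter from 218 and 255 to 587 and 478 tags per 10 M (1.17 ± 0.20) and a window of the coactivator Bcl3 from 104 and 104 to 427 and 354 tags per 10 M (1.91 ± 0.21). Nfkb1 also held a lost window 94.4 kb into the gene, from 184 and 151 to 24.6 and 25.2 tags per 10 M, so promoter and intron of 1 gene moved in opposite directions.

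The upstream Toll-like receptor pathway had 15 of 103 windows gained (14.6%) and 24 lost (23.3%) under library totals. With TMM it had the opposite balance, 25 gained and 11 lost. Promoters of Myd88, the shared adaptor, of Irak3, an inhibitory kinase homolog, of Tbk1, of Tlr2 and of Tlr3 were gained. The Myd88 promoter rose from 205 and 204 to 762 and 561 tags per 10 M (1.69 ± 0.20) and the Tlr2 promoter, a receptor for bacterial lipopeptides, from 64 and 60.2 to 231 and 197 tags per 10 M (1.79 ± 0.23). For Tlr4, the receptor of KLA, the promoter-proximal window fell from 483 and 467 to 218 and 174 tags per 10 M (log2 fold change -1.27 ± 0.20 SE, edgeR adjusted p = 1.19e-09), a loss that was not called under TMM, and a window in its 3′ UTR fell from 179 and 191 to 51.8 and 42.9 tags per 10 M under both scalings. Ly86, which encodes the partner MD-1 of the receptor RP105, lost an intronic window, from 313 and 286 to 51.8 and 52.2 tags per 10 M.

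Feedback inhibitors gained 21 of 114 windows (18.4%) and lost 33 (28.9%), or 29 and 23 with TMM. Socs3, an inhibitor of cytokine receptors, rose at its promoter from 11.6 and 16.6 to 340.0 and 245 tags per 10 M (log2 fold change 4.37 ± 0.29 SE, edgeR adjusted p = 4.38e-49). Cish went from 6.64 and 8.72 to 82.9 and 58.9 tags per 10 M (3.21 ± 0.36) and Socs1, which restrains JAK kinases, from 130.4 and 156 to 515 and 428 tags per 10 M (1.72 ± 0.21). All 3 promoters were near empty or moderate with Veh and high with KLA, while a window of Socs6 fell from 319 and 271 to 40.8 and 29.5 tags per 10 M (-3.05 ± 0.24) and a window of the mRNA decay factor Zfp36l2 from 647 and 634 to 124 and 109 tags per 10 M (-2.46 ± 0.21). TNF family genes had 9 gained (14.5%) and 16 lost (25.8%) of 62 windows, a balance that turned to 17 gained and 7 lost with TMM. The receptor gene Tnfrsf1b held both. A window 25962 bp from its start site rose from 83.1 and 70.6 to 475 and 417 tags per 10 M. An intronic window of this gene fell from 472 and 462 to 174 and 130.4 tags per 10 M.

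Enzymes of lipid mediators, nitric oxide and itaconate also moved in both directions. Of 53 windows 15 were gained (28.3%) and 20 were lost (37.7%), and with TMM 17 were gained and 10 lost. Slc7a2, the arginine transporter that feeds nitric oxide synthesis, rose at its promoter from 6.64 and 10.5 to 174 and 109 tags per 10 M (log2 fold change 4.05 ± 0.33 SE, edgeR adjusted p = 1.19e-32). Pla2g4a, the phospholipase that frees arachidonic acid, gained 9 of 13 windows, and its strongest rose from 9.97 and 14.8 to 163 and 146 tags per 10 M. Gch1, which makes the cofactor of nitric oxide synthase, rose from 160.3 and 184 to 548 and 423 tags per 10 M. Alox5ap, which presents arachidonic acid to 5-lipoxygenase, fell at its promoter from 115 and 94.2 to 14.9 and 16 tags per 10 M (log2 fold change -2.76 ± 0.30 SE, edgeR adjusted p = 7.18e-19), and a window near the prostaglandin D synthase gene Hpgds fell from 363 and 377 to 97.1 and 84.2 tags per 10 M. No window had Ptgs2 or Cp as its nearest gene.

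Genes of sterol synthesis gained the mark at their promoters. The list of LXR, cholesterol and lipogenic genes had 14 gained (18.4%) and 13 lost (17.1%) of 76 windows, or 22 and 4 with TMM. Among its 34 promoter windows 12 were gained and 2 lost, with a promoter median of 0.69. Without KLA replicate 1 the lost windows of the list numbered 21. The 5.32% gained and 14.7% lost of all proximal windows are the comparison. Fdps, the farnesyl diphosphate synthase, rose from 34.1 and 35.8 to 144 and 142 tags per 10 M (log2 fold change 2.03 ± 0.26 SE, edgeR adjusted p = 9.10e-14). It was higher in each KLA library than in either Veh library. Srebf2, the transcription factor that drives the pathway, rose from 115 and 108 to 275 and 264 tags per 10 M (1.27 ± 0.22) and Sqle, squalene epoxidase, from 29.1 and 26.2 to 76.4 and 72.4 tags per 10 M (1.43 ± 0.29). Idi1, Srebf1, Stard4, Cyp51, Sc5d and Fasn were among the other genes gained at a promoter, and Insig2 and Npc1 the 2 lost, under library totals and not under TMM. The transporter Abca1, an LXR target that exports cholesterol, lost a window 27.5 kb upstream, from 515 and 522 to 152 and 137 tags per 10 M (log2 fold change -1.84 ± 0.20 SE, edgeR adjusted p = 3.11e-18), while its promoter stood at 210.1 and 222 tags per 10 M with Veh and 201 and 156 with KLA and was not called. The Scd2 window with the most tags had 68.9 and 77.6 tags per 10 M with Veh and 94.5 and 63.1 with KLA and was not called (adjusted p = 0.713 by edgeR). In Pgc1b flox macrophages, a separate experiment given below, 4 windows of this list were gained and 13 were lost, and the KLA response was called more positive with DMSO at 4 windows and more negative at 0.

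Lineage transcription factors, which set the enhancers of the resting macrophage, lost 81 of 205 windows (39.5%), 60 of them under both scalings (29.3%, beside 17.2% of all windows). They gained 18 (8.78%), or 33 with TMM. None of their 49 promoter windows was gained and 15 were lost, beside 5.32% gained and 14.7% lost of all proximal windows. Cebpa, the C/EBPα gene, fell at its promoter from 279 and 314 to 55 and 41.2 tags per 10 M (log2 fold change -2.61 ± 0.24 SE, edgeR adjusted p = 2.38e-26). Tfeb, which drives lysosome genes, fell from 260.0 and 273 to 73.2 and 45.4 tags per 10 M (-2.15 ± 0.23). A window 31.1 kb from Klf2, a restraint on macrophage activation, fell from 236 and 238 to 12.3 and 17.7 tags per 10 M (-4.00 ± 0.28). At Runx1, which encodes a RUNX factor, an intronic window 24.3 kb into the gene fell from 482 and 485 to 74.5 and 61.4 tags per 10 M (-2.82 ± 0.22). Under library totals a Runx1 window within 2 kb of a start site was lost as well. Another Runx1 window, 67 bp upstream, had 282 and 311 tags per 10 M with Veh and 529 and 427 with KLA and was gained under TMM only. Spi1, which encodes PU.1, had 489 and 519.8 tags per 10 M with Veh and 843 and 656 with KLA at its promoter and was likewise gained under TMM only. Single distal windows near Etv6, Maf and Zeb2 were gained, with log2 fold changes of 3.11 ± 0.24, 2.99 ± 0.23 and 2.83 ± 0.23.

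Receptors for dying cells and debris lost the mark at more promoter windows than gained it. Scavenger and efferocytosis genes had 12 gained (14.8%) and 25 lost (30.9%) of 81 windows, or 13 and 18 with TMM. Of their 18 promoter windows 3 were gained and 10 lost, 6 under both scalings (promoter median -1.22). Of all proximal windows 5.32% were gained, 14.7% lost and 7.54% lost under both scalings. Mertk, the kinase receptor for apoptotic cells, fell from 90.5 and 77.6 to 20.7 and 21 tags per 10 M (log2 fold change -2.01 ± 0.29 SE, edgeR adjusted p = 6.81e-11), and Mfge8, a bridging protein, from 44.9 and 32.3 to 12.3 and 6.73 tags per 10 M (-1.97 ± 0.40). A window near Gas6, the ligand of Mertk, fell from 323 and 313 to 49.9 and 45.4 tags per 10 M (-2.73 ± 0.24). The class A scavenger receptors moved the opposite way. A window 9.2 kb from Msr1 rose from 73.9 and 83.7 to 548 and 491 tags per 10 M (2.72 ± 0.22) and 1 near Marco from 9.14 and 8.72 to 117 and 74.1 tags per 10 M (3.41 ± 0.34).

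Immunoreceptors moved in both directions. Of 86 windows of Fc, CD300, C-type lectin and Siglec genes, 12 were gained (14%) and 19 lost (22.1%). With TMM the balance turned to 17 gained and 14 lost. Clec4e, the Mincle receptor for mycobacterial glycolipid, rose at its promoter from 39.9 and 48.8 to 443 and 367 tags per 10 M (log2 fold change 3.19 ± 0.24 SE, edgeR adjusted p = 4.82e-39), and the inhibitory Fc receptor Fcgr2b from 78.1 and 69.8 to 362 and 274 tags per 10 M (2.11 ± 0.22). Trem2, a lipid receptor, fell at its promoter from 691 and 727 to 127 and 71.5 tags per 10 M (log2 fold change -2.82 ± 0.21 SE, edgeR adjusted p = 2.42e-38), and Cd300lb from 707 and 638 to 111 and 91.7 tags per 10 M (-2.72 ± 0.21). Promoters of Cd300a, Cd300lf, Cd300ld and Fcrls were lost as well, and a window at the β-glucan receptor gene Clec7a fell from 282 and 242 to 64.8 and 53 tags per 10 M (-2.14 ± 0.23). In Pgc1b flox macrophages, a separate experiment given below, this Clec7a window went from 112 and 132 to 122 and 118 tags per 10 M.

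Chemotactic and purinergic receptor genes had 16 gained (15.4%) and 38 lost (36.5%) of 104 windows, 32 lost under both scalings (30.8%), with 21 gained under TMM. Besides Cxcr4, the sphingosine phosphate receptor gene S1pr1 lost 12 of 16 windows, the strongest falling from 170.3 and 177 to 24 and 17.7 tags per 10 M (log2 fold change -3.04 ± 0.27 SE, edgeR adjusted p = 7.53e-27). Ptger2, a receptor for prostaglandin E2, fell at its promoter from 184 and 185 to 33.7 and 27.8 tags per 10 M (-2.57 ± 0.26) and P2rx7, the ATP-gated channel, from 439 and 409.9 to 169.7 and 137 tags per 10 M (-1.46 ± 0.20). Other receptors of the list gained the mark. Adora2a, the adenosine receptor that raises cyclic AMP, rose from 12.5 and 17.4 to 215 and 199 tags per 10 M (log2 fold change 3.79 ± 0.29 SE, edgeR adjusted p = 2.47e-36), Gpr84, a receptor for medium-chain fatty acids, from 81.4 and 106 to 407 and 369 tags per 10 M (2.05 ± 0.22), and windows near Fpr1 and Fpr2 rose with log2 fold changes of 2.69 ± 0.22 and 2.54 ± 0.22.

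The RANK and osteoclast list lost 26 of 66 windows (39.4%), 21 under both scalings (31.8%, the largest such share), and gained 7 (10.6%) under either scaling. Nfatc1, the master factor of osteoclasts, fell at an intronic window from 218 and 226 to 36.3 and 29.5 tags per 10 M (-2.74 ± 0.25). Atp6v0d2 fell from 227 and 207 to 18.8 and 23.6 tags per 10 M (-3.36 ± 0.27). The phosphoinositide list lost 27 of 132 windows (20.5%) and gained 7 (5.3%), or 19 and 16 with TMM. Both shares under library totals were below those of all windows. An intronic window of Akt1 fell from 187 and 194 to 33.7 and 11.8 tags per 10 M.

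Lysosome and V-ATPase genes lost 34 of 102 windows (33.3%), 22 under both scalings (21.6%). At 70 matched windows in the NCoR flox/flox cells given below, 5 were gained and 2 lost. With DMSO the list gained 1 (0.98%), or 8 with TMM, 4 without KLA replicate 2 and 2 without Veh replicate 1. An intronic window of Lipa, the acid lipase of lysosomes, fell from 588 and 591 to 124 and 92.6 tags per 10 M (log2 fold change -2.43 ± 0.21 SE, edgeR adjusted p = 2.30e-29) and a window of the peptidase gene Tpp1 from 149.5 and 149 to 18.8 and 15.1 tags per 10 M (-3.12 ± 0.29). Promoters of the cathepsin genes Ctsa, Ctsd and Ctsl and of Hexa were lost under library totals, and of these Ctsd alone under TMM. Fatty acid oxidation and PPAR genes lost 14 of 40 windows (35%), 10 under both scalings (25%), and gained 1 (2.5%), or 2 with TMM. Among them Fabp5, a fatty acid carrier, fell from 233 and 229 to 99.1 and 63.1 tags per 10 M, and Acadm, a β-oxidation dehydrogenase, from 132 and 142 to 42.1 and 47.1 tags per 10 M. Glycolysis and HIF1 genes had 9 gained (11%) and 18 lost (22%) of 82 windows, and the opposite balance of 18 gained and 10 lost with TMM. The transporter Slc2a6 rose at its promoter from 105 and 100.3 to 564 and 437 tags per 10 M (2.28 ± 0.21) and Pfkfb3, which makes the activator of phosphofructokinase, from 54 and 56.7 to 214 and 182 tags per 10 M (1.84 ± 0.24), whereas a window near the mitophagy gene Bnip3 fell from 75.6 and 89 to 6.48 and 2.52 tags per 10 M (-4.09 ± 0.39). Oxidative phosphorylation genes had 0 gained and 9 lost (9.89%) of 91 windows, with a median of -0.04, and none of their 64 promoter windows was called. With TMM the direction turned, with 10 gained, 3 lost and a median of 0.38. Without KLA replicate 2, 3 of their windows were gained, and without Veh replicate 2, 1 was.

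Cell cycle genes lost 24 of 91 windows (26.4%), 10 under both scalings (11%), both shares below those of all windows, and gained 1 (4 with TMM, 3 without KLA replicate 2, 0 without Veh replicate 1). At promoters 12 of 49 were lost (3 under both scalings, beside 7.54% of all proximal windows) and 0 gained, at genes that include Pola1, Rrm2, Cdc6, Top2a and Cdk1, and a window 197.7 kb from Mki67 fell from 358 and 320.1 to 41.4 and 37.9 tags per 10 M (-3.09 ± 0.24). AP-1 and immediate early genes lost 25 of 104 windows (24%) and gained 5 (4.81%), both shares below those of all windows. Without KLA replicate 2 they gained 10, and with TMM they lost 14 and gained 13. Fos fell at a window 1.6 kb upstream from 216 and 169 to 58.3 and 51.3 tags per 10 M (log2 fold change -1.81 ± 0.24 SE, edgeR adjusted p = 3.39e-13), and a window near Batf, an AP-1 partner of IRF factors, rose from 21.6 and 16.6 to 294 and 241 tags per 10 M (3.80 ± 0.27). Chromatin regulators lost 45 of 146 windows (30.8%), 25 under both scalings (17.1%), and gained 7 (4.79%), or 19 with TMM. TGF-beta genes lost 23 of 96 (24%) and gained 7 (7.29%), and with TMM lost 12 and gained 13. NRF2 and iron genes lost 19 of 63 (30.2%) and gained 2 (3.17%), or 4 without KLA replicate 2, and with TMM lost 8 and gained 7. Apoptosis genes lost 11 of 62 (17.7%) and gained 7 (11.3%), or 4 without KLA replicate 1. With TMM the balance of apoptosis genes turned to 6 lost and 13 gained. Clock genes lost 6 of 31 (19.4%), or 3 with TMM, and gained 1 (3.23%) under either scaling, the promoter of the repressor Nfil3. Slc40a1, the iron exporter ferroportin, fell at a distal window from 297 and 275 to 64.1 and 47.1 tags per 10 M (-2.35 ± 0.23). Complement genes had 0 gained and 1 lost (4.55%) of 22 windows, or 2 and 1 with TMM. Without KLA replicate 1 the list had 4 lost windows and 1 gained, and without Veh replicate 2 it had 2 lost.

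Lists of mostly housekeeping genes, gathered by name, serve as comparison, and they are not free of genes described above. The Zfp list takes in the mRNA decay factor Zfp36l2. The proteasome list takes in Psmb10, gained at its promoter and also counted in class I presentation. Mitochondrial ribosomal proteins lost 10 of 63 windows (15.9%) and gained 3 (4.76%), which turned to 3 lost and 5 gained with TMM. Zfp genes lost 86 of 429 (20%) and gained 17 (3.96%), or 45 and 33 with TMM. The cytosolic ribosomal list lost 17 of 88 (19.3%) and gained 2 (2.27%), or 5 without KLA replicate 2 and 4 without Veh replicate 1. With TMM it lost 10 and gained 9. Rps6ka2, Rps6ka3 and Rps6ka5, which encode kinases and entered by their names, hold all 5 of its lost promoter windows. No ribosomal protein gene of the list lost a promoter window, and the list is not one of ribosomal proteins alone. Proteasome genes had 7 gained (15.9%) and 10 lost (22.7%) of 44 windows, the opposite of 16 gained and 5 lost with TMM. Of 30 promoter windows 6 were gained and 1 was lost. Without KLA replicate 1, 3 windows of the proteasome list were gained in all. Of the 34 lists, 6 had more gained than lost windows under library totals (interferon-stimulated genes, class I presentation, cytokines, chemokines, NFκB and the LXR and cholesterol list), and 18 did under TMM.

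**Figure D4:**
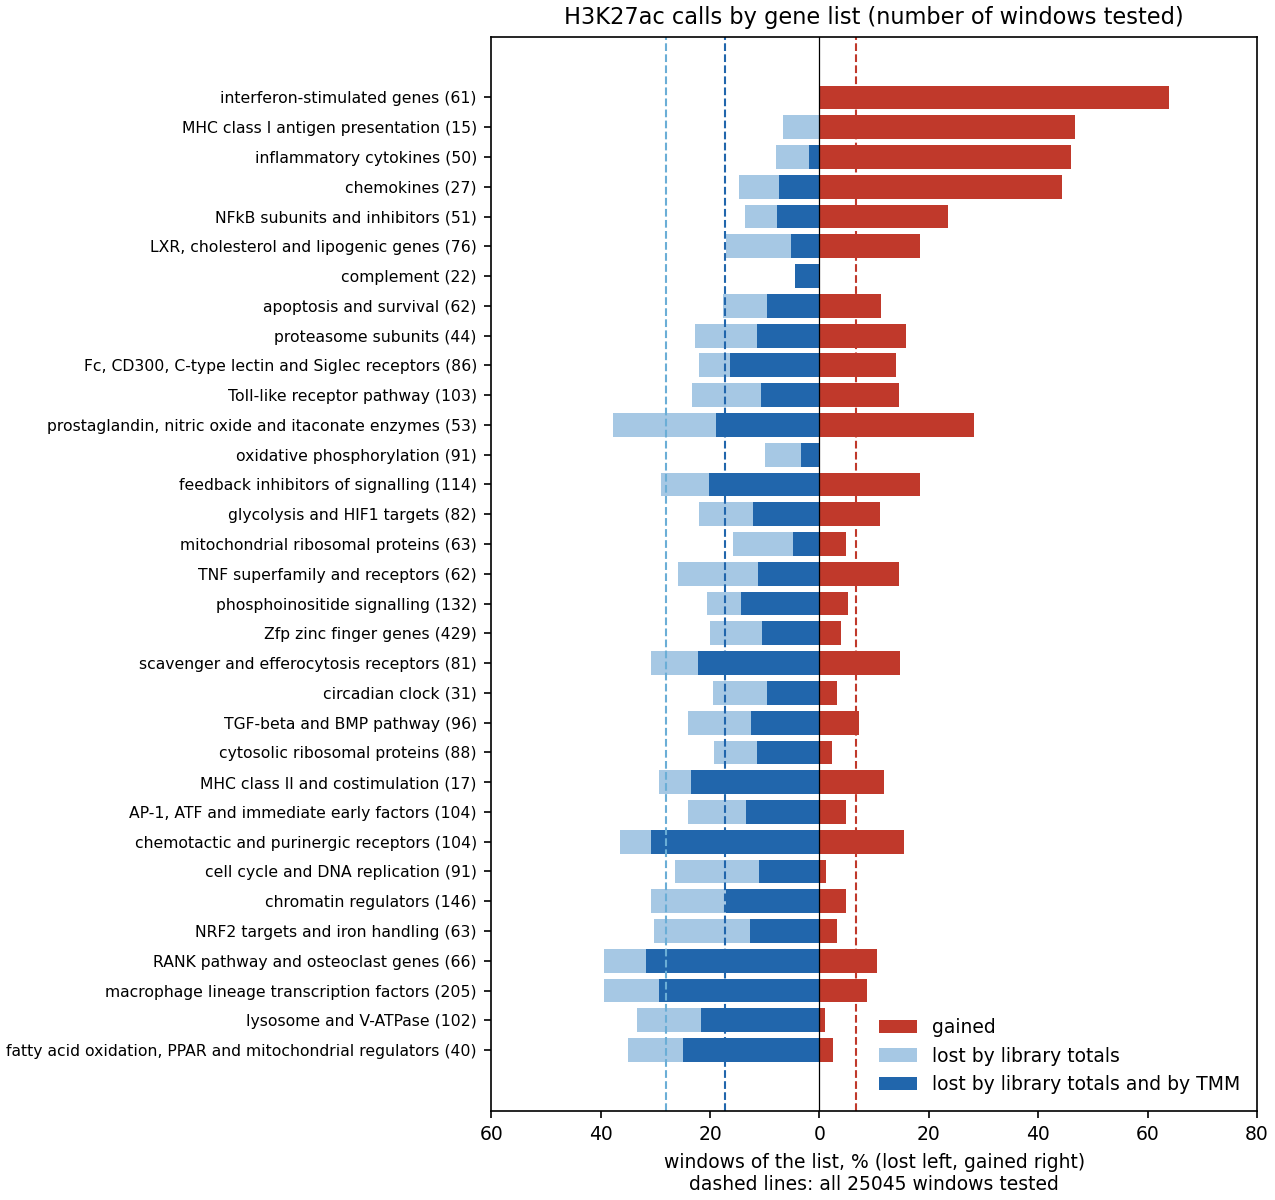
Percent of windows gained (red, to the right) and lost (light blue, to the left; dark blue, lost under library totals and TMM) in each of 33 of the 34 gene lists, with the number of windows tested in parentheses. Dashed lines mark all 25045 windows at 6.73% gained, 28.1% lost and 17.2% lost under both scalings; interferon-stimulated genes reach 63.9% gained and lineage transcription factors 39.5% lost.

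Some genes had many called windows, a number that also depends on how many windows a gene was assigned. Over 11187 genes with a tested window, 940 had gained windows only, 3604 lost windows only, 244 both and 6399 neither. The most gained windows lay around Abcc4, an exporter of cyclic nucleotides and prostaglandins (9 of 11), Pla2g4a (9 of 13), Maf (8 of 32), Ly6e (7 of 7), 4933432I03Rik (7 of 7), Slco3a1 (7 of 9), 4921509O07Rik (7 of 12) and Ext1 (7 of 15). Adgb (6 of 10) and Itgb8 (6 of 7), an integrin that activates TGF-beta, closed the 10. Around Maf, 8 other windows were lost, so the locus held both directions. The most lost windows lay around Mir21c (15 of 21), Dhrs3 (13 of 19), the forkhead factor gene Foxp1 (12 of 20), Klf4 (12 of 19), S1pr1 (12 of 16), the Wnt antagonist gene Dkk2 (11 of 14), Mbp (11 of 14), Slc16a7 (11 of 12), Arhgap18 (10 of 12) and Depdc1b (10 of 11). None of these 10 loci held a gained window under library totals, to which the counts of this paragraph refer. With TMM Klf4 held 1. Under both scalings fewer windows were lost, for example 13 around Mir21c and 7 around Dhrs3.

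The central 200 bp of the windows were searched for 15 motifs on both strands. Matches to κB stood in 7.95% of gained, 2.51% of lost and 4.77% of uncalled windows, and in 4.35% of all. ISRE matches stood in 15.6% of gained, 6.62% of lost and 6.88% of uncalled windows, and near start sites in 16.1%, 3.38% and 3.59%. The STAT letters TTCNNNGAA, which share GAA with the ISRE, were found in 8.96%, 4.43% and 5.51%. Lost windows were more often distal than uncalled ones, so shares are given over all windows and then among distal ones. PU.1 letters stood in 12.6% of gained, 14.4% of lost and 9.91% of uncalled windows, RUNX letters in 7.06%, 9.75% and 5.70%, and the MEF2 motif in 1.60%, 2.83% and 1.43%. AP-1 stood in 18.4%, 19.2% and 14.6%, and C/EBP in 13.7%, 12.2% and 9.38%. Among distal windows alone, the shares in gained, lost and uncalled windows were 15.5%, 16.3% and 15.5% for PU.1, 22.8%, 22.1% and 24.1% for AP-1, and 14.8%, 13% and 12.9% for C/EBP. They were 8.68%, 10.9% and 8.84% for RUNX, 2.15%, 3.35% and 2.32% for MEF2, 15.4%, 7.46% and 9.94% for ISRE, and 8.17%, 2.43% and 5.2% for κB. SP/KLF letters (GGGCGGGG) and NRF1 letters (GCGCNTGCG), typical of constitutive promoters, were commonest in uncalled windows, at 14.6% and 6.27%, and among distal windows at 2.64% and 0.65%. Median GC content was 50% in gained and lost windows and 55% in uncalled windows. Of 22 interferon-stimulated genes gained at a promoter, 15 had a promoter in the RefSeq table and 9 of these (60%) held an ISRE match in the 250 bases. So did 10 of 17 tested promoters of the list (58.8%), gained or not, beside 7.13% of all promoters. The share therefore describes the list and not the gain. The letters TCACNCCAC of SREBP sites, added after the sterol promoters were seen, were found in 1.01% of gained and 0.866% of all windows, and in 0 of 12 gained promoter windows of the sterol list (1 of 12 over the central 500 bp). These shares describe letters in fixed windows and do not show binding.

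Binding of 8 factors measured in separate libraries, labelled WT and without DMSO, was read at peaks within 500 bp of the windows. The p300 Veh libraries are labelled as taken at the start of KLA treatment and not after 6 h of vehicle. For p65, the transactivating NFκB subunit, 84.8% of gained, 65.4% of lost, 65.9% of uncalled and 67.1% of all windows had a peak, and the median log2 fold change of binding with KLA was 2.16 at gained, 0.64 at uncalled and 0.14 at lost windows. With TMM these were 0.93, -0.59 and -1.08, so whether p65 rose or fell at lost windows depends on the scaling, while the order of the 3 sets does not. The acetyltransferase p300 had medians of 1.22, -0.05 and -0.71 (TMM 0.70, -0.57 and -1.23), and Fosl2, an AP-1 subunit, 1.03, -0.25 and -0.99. PU.1 had peaks at 72.3% of gained, 82.9% of lost and 68.1% of uncalled windows and medians of 0.23, -0.32 and -0.86 (TMM 0.64, 0.09 and -0.45). The study proposes that with KLA the corepressor NCoR and the deacetylase HDAC3 join the coactivator PGC1β in a complex that activates genes. NCoR (0.56, -0.22 and -0.89) and HDAC3 (0.69, -0.05 and -0.65) had the same order as PGC1β (0.84, 0.03 and -0.53) and the kinase ERK1 (0.92, 0.02 and -0.58). In the plot of factor binding the 3 sets keep this order for each of the 8 factors under both scalings. Peaks of the 8 factors overlap at the same windows, and these medians are descriptions without a test.

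**Figure D5:**
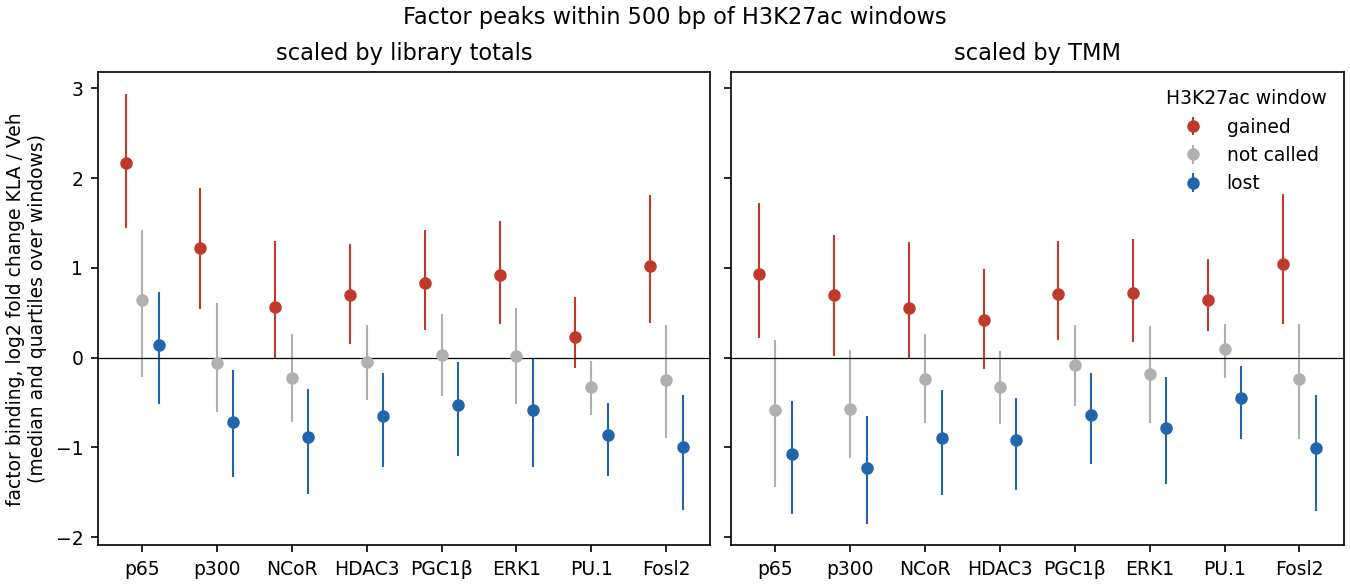
Log2 fold change (KLA over Veh, y axis) of the binding of 8 factors at peaks within 500 bp of gained (red), uncalled (grey) and lost (blue) windows, scaled by library totals (left) and TMM (right). Points are medians and lines quartiles over windows; p65 has medians of 2.16, 0.64 and 0.14 on the left and 0.93, -0.59 and -1.08 on the right.

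H3K27ac had also been measured with Veh and KLA, 2 libraries each, in Pgc1b flox macrophages and in the libraries named WT, whose genotype label is NCoR flox/flox, both without DMSO. In Pgc1b flox cells 1328 of 25194 windows were gained (5.27%) and 6428 were lost (25.5%). Of 1668 windows gained with DMSO that had a value there, 981 were gained (58.8%) and 3 lost, and of 7020 lost ones 4767 were lost (67.9%) and 2 gained. In the NCoR flox/flox cells, counted over other regions, 1200 of 18504 were gained (6.49%) and 688 lost (3.72%). Of 967 matched gained windows 883 were higher there (352 called gained), and of 3049 matched lost windows 2505 were lower but only 451 were called lost (14.8%). By list, interferon-stimulated genes had 16 gained and 0 lost of 35 matched windows there. Lineage factors had 8 and 8 of 116, chemotactic receptors 6 and 3 of 57 and the RANK list 1 and 4 of 38. In Pgc1b flox cells the lineage, chemotactic, RANK and lysosome lists gained 19, 8, 8 and 3 windows and lost 65, 33, 20 and 16. In the NCoR flox/flox experiment the median over regions was 0.13, beside -0.42 with DMSO. With TMM its counts were 895 gained and 959 lost of 18504, beside 3124 gained and 4316 lost of 25045 with DMSO. The share lost was thus smaller there under either scaling, and the cause was not tested.

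The size of the KLA response differed between the DMSO and the Pgc1b flox experiment at some windows. An interaction test with edgeR called 377 of 25194 windows more positive (1.5%) and 429 more negative (1.7%) in DMSO cells. Counts of more positive windows without 1 library were 189 and 184 (DMSO Veh replicates 1 and 2), 207 and 229 (Pgc1b flox Veh replicates 1 and 2) and 747 (DMSO KLA replicate 2). Counts of more negative windows were 205 without DMSO Veh replicate 1 and 943 without DMSO KLA replicate 1. Experiment, genotype and solvent differ together here and cannot be told apart. By list, cell cycle windows were more positive with DMSO at 11 and more negative at 0 of 91, and glycolysis windows at 10 and 1 of 82. Lysosome windows were more positive at 0 and more negative at 10 of 102, while interferon-stimulated genes differed at 1 of 61 windows and cytokine genes at 0 of 50. A p that missed the threshold does not show that the responses were equal. At the window near Nfkbia, for example, the level went from 169 and 138 to 973 and 786 tags per 10 M with DMSO and from 276 and 310 to 604 and 653 in Pgc1b flox cells (interaction 1.41 ± 0.20 SE, edgeR adjusted p = 4.88e-09). The window rose in both experiments, from a lower start and to a higher end with DMSO.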

How the data were processed

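H3K27ac ChIP-seq tags were compared between KLA and Veh in the 4 DMSO libraries. Per the study's methods, reads had been aligned to mm10 with Bowtie2 and counted with HOMER, both of versions not given in the sources used here. The deposited files held raw counts of tags, with at most 3 per position, in windows of 1000 bp on ATAC-seq peaks of Veh cells, and the authors did not normalise them. Columns of the authors' own comparisons were not used, and 0 columns of per-sample values were left out for lack of a matching label.

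Counts were scaled by the header totals and fitted with edgeR 4.0.16 (glmQLFit and glmQLFTest, limma 3.58.1, R 4.3.3) on windows with at least 16 tags in at least 1 library, with 4 for factor peaks. The 2 RGFP966 KLA libraries entered the fit for the spread, and they also counted for the minimum of tags and for the TMM and size factors. With the 4 DMSO libraries alone, 23968 windows were tested, 1611 were gained and 6870 were lost. A call needed a Benjamini-Hochberg adjusted p under 0.05 and a change above 2-fold. p-values measure the spread between 2 samples per group. Alternatives were TMM, DESeq2 1.42.0, other filters, the replicate block and leaving out each library. Scripts were tested on simulated data. Recovery of simulated decreases fell short of the limit first set, which was lowered after that was seen, and the cause was not tested. Replicate numbers did not pair the samples, with correlations of their deviations of 0.00502, 0.0158 and 0.0255.

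Members, gene lists, motifs and tests were chosen with earlier results of these data known. The genes named are, first, the 10 gained and 10 lost windows with the lowest p, 1 per gene. To these were added up to 3 gained and 3 lost windows per list, the 10 genes with most gained and most lost windows, and the largest window of Ptgs2, Cp, Il12a, Abca1 and Scd2. Other promoters were named after their values were seen. Some genes that meet the rule, and 1 list, are not reported here. All 29767 windows lay inside GRCm38 chromosomes, and 83% of 8286 start-site distances recomputed from RefSeq were within 10 bp of those in the files. Coordinates are 1-based.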

Additional observations from a re-analysis of the deposited data

Results flagged for a closer look

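The KLA response differed between the DMSO and the Pgc1b flox experiment at 377 windows that were more positive and 429 that were more negative with DMSO, by an edgeR interaction test over 25194 windows. Values below are the log2 difference of the KLA responses, DMSO minus Pgc1b flox, each called at an adjusted p under 0.05 and over 2-fold. Experiment, genotype and solvent cannot be told apart in them.

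Among genes that gained H3K27ac with DMSO, the difference was 1.81 near Batf, 1.61 at the Ccl12 promoter, 1.55 at Nfil3, 1.54 near Marco, 1.53 at Clec4e, 1.52 near Tgm2, 1.41 near Nfkbia and 1.41 at Pfkfb3. It was 1.26 at the promoter of the sterol enzyme gene Fdps, 1.25 at Zfp719, 1.24 at Jdp2 and 1.06 in Elmo1. Among genes that lost it, the difference was -1.01 near Slc7a13, -1.06 at Pf4, -1.13 at Cd300lb, -1.13 near Tgif1, -1.19 in Ly86 and -1.27 in Akt1. At a window whose nearest gene is Psmd6, 52887 bp from its start site, it was -1.35. It was -1.41 near the methylcytosine dioxygenase gene Tet3, -1.41 in Atp6v0d2, -1.61 near Rps6ka3, -2.11 near Bnip3 and -2.37 near Arhgap9.

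A further 5 windows were taken for their low interaction p after the values were seen. Near Saa4, a serum amyloid A gene, the level went from 115 and 119 to 345 and 295 tags per 10 M with DMSO and from 170 and 180 to 139 and 137 in Pgc1b flox cells (difference 1.79). At Mthfd2, a mitochondrial folate enzyme gene, it went from 23.3 and 19.2 to 119 and 109 with DMSO and from 157 and 152 to 178 and 166 in Pgc1b flox cells (2.26). Near Gm1966 it went from 499 and 436 to 857 and 735 with DMSO and from 26.4 and 6.24 to 128 and 176 in Pgc1b flox cells (-2.37). The remaining pair, Tifab (-1.63) and the promoter of Clec7a (-2.13), fell with DMSO and not in Pgc1b flox cells. There Tifab went from 328 and 339 to 419 and 409 and Clec7a from 112 and 132 to 122 and 118.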

How the results depend on the processing

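With 2 libraries per group and a lower share of tags in windows in KLA replicate 2, the scaling set the balance of directions. Gained windows numbered 3124 with TMM, 3450 with DESeq2 size factors, 3304 with the DESeq2 Wald test and 3127 with no fold minimum, and lost windows 4316, 4000 and 3755 under the first 3 of these, with 13208 called in all with no fold minimum. With TMM and size factors, proximal windows gained were 1154 and 1302 and lost 742 and 677, and distal windows gained were 1970 and 2148 and lost 3574 and 3323. Lists with more gained than lost windows numbered 18 with TMM, 21 with size factors and 23 with DESeq2. Leaving out 1 library gave 1403 to 1956 gained and 6117 to 7979 lost windows. With TMM, an alternative added after seeing the data, it gave 3082 to 4018 gained and 3546 to 4129 lost. Gained windows then outnumbered lost ones without either KLA replicate (3818 against 3546 and 4018 against 3685), so the direction of the balance turned.

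The interaction called 1597 windows with no fold minimum, 682 more positive and 915 more negative. Leaving out 1 of 8 libraries gave 394 to 1196 calls, 184 to 747 more positive and 205 to 943 more negative. Of matched windows in the NCoR flox/flox cells, 83.4% of gained ones were higher and 91.9% of lost ones lower with TMM in both fits. ISRE matches stood in 27.9% of gained and 15.8% of lost windows over the central 500 bp and in 13% of windows gained with TMM, and κB matches in 16.4% and 7.42% over 500 bp.

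With the replicate number as a block, 1676 windows were gained and 7099 lost, and the interaction called 370 and 442. Of 193 named windows 0 reversed under the alternatives, and the call was lost for 12 with TMM, 14 with size factors, 15 with DESeq2, 1 with the block and 2 to 6 without 1 library. The cause of these moves was not tested.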
